A study of Mus musculus with 16 samples.

Results

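Receptor, kinase and cytokine genes that start or carry interferon, IL-15 and IL-12 signals were followed in mouse host cells of HER2-positive xenografts. They were chosen by symbol: Ifnar1, Ifnar2, Ifngr1, Ifngr2, Jak1, Jak2, Tyk2, Il15, Il15ra and Il12rb1. All 10 of the 10 symbols were among the 23354 symbols with a value in every library, of 24681 symbols listed. Of the 10, 9 passed the filter on low counts; Il12rb1 did not. RNA was sequenced from 16 whole tumours in the mammary fat pad. The tumour cells were AU565(pv), a line from a human breast carcinoma that carries extra copies of HER2. The hosts were SCID mice, without mature B or T cells but with NK cells and myeloid cells. Treatment by intraperitoneal injection began at a tumour area of 20 to 25 mm2, and tumours were taken 2 days later. Each group held 4 mice: vehicle, with D5W and PBS; trastuzumab, an antibody against HER2, at 10 mg/kg with D5W; panobinostat, a histone deacetylase inhibitor, at 15 mg/kg on both of the first days with PBS; and the combination of both drugs at those doses. The labels disagree on the day of the trastuzumab dose. The libraries are called by their group and mouse number, such as combination 22.

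Type I interferons bind a receptor of the chains IFNAR1 and IFNAR2, to which the kinases TYK2 and JAK1 are attached. Interferon gamma binds the chains IFNGR1 and IFNGR2, which carry JAK1 and JAK2. The activated kinases phosphorylate STAT proteins, and these switch on interferon response genes. IL-15, a cytokine that maintains NK cells, is bound by IL-15 receptor alpha on the cell that makes it and is shown to NK cells that carry the receptor chains encoded by Il2rb and Il2rg. IL-12 receptor beta 1 is part of the receptors for IL-12 and IL-23 on NK cells, T cells and some myeloid cells.

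The counts were of reads assigned to mouse genes, with totals of 4848244 to 8140782 per library. The marker genes of macrophages summed to 7860 to 11251 CPM (counts scaled to library size) in the 16 libraries, and those of fibroblasts were of like size, so the labelled mouse stroma and immune cells were present. The 10 NK cell markers summed to 19.8 to 35.9 CPM in vehicle, 22.8 to 102 in trastuzumab, 38.8 to 54.8 in panobinostat and 39.6 to 112 in combination libraries. The 12 luminal HER2-type epithelial genes, which human tumour reads could reach, summed to 798 to 1080 CPM in vehicle and 828 to 1280 CPM in combination libraries. The share of human reads was not measured. In such bulk samples, fewer cells of a type and less RNA per cell cannot be told apart.

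The stretches of 250 bases before the transcription start are shown for 4 of the genes, since interferon response genes often carry a gamma-activated site or a response element there, and the motif letters found are in capitals. A promoter entry of RefSeq (build GRCm38.p6) was matched for 8 of the 10 genes; the others were Il15 and Il12rb1. Ifnar2 is shown for its motif match, Tyk2 for the lowest p-value over panobinostat among the 9 tested genes, and Jak2 and Il15ra as genes that were high in the same libraries. All are written 5′ to 3′ on the strand of the gene: Ifnar2 at chr16:91372533-91372782 on the plus strand, Tyk2 at chr9:21131276-21131525 on the minus strand, Jak2 at chr19:29251553-29251802 on the plus strand, and the first of the starts of Il15ra at chr2:11705043-11705292 on the plus strand.
Ifnar2: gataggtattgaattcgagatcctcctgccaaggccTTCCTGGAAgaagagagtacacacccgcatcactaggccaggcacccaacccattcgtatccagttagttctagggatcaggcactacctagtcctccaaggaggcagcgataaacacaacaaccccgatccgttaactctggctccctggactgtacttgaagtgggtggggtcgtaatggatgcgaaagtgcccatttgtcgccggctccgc
Tyk2: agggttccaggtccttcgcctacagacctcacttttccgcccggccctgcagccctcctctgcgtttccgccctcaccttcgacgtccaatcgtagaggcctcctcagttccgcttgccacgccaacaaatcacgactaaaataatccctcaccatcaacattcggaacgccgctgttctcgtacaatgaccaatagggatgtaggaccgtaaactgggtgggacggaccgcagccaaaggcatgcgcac
Jak2: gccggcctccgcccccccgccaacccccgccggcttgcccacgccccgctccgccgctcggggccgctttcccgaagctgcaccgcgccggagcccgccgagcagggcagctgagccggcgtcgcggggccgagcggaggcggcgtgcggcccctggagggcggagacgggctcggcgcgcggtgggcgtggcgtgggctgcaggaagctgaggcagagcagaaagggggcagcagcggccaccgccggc
Il15ra: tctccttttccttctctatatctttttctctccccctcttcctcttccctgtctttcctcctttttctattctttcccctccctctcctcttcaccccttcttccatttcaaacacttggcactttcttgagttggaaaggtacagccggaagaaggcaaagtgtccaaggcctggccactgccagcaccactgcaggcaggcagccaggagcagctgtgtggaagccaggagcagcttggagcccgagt
The letters TTCNNNGAA of a gamma-activated site, searched on both strands, matched once among these genes, as TTCCTGGAA at -214 to -206 of the Ifnar2 start. That motif was in 7.02% of 32851 RefSeq promoter windows of the same length. The core of an interferon-stimulated response element, GAAA, any 2 bases and GAAA, matched none of the 8 genes, against 2.98% of all windows. A match is a run of letters and says nothing of binding.

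Per kilobase of exon, the vehicle level ran from Jak1 down to Il12rb1. Mean vehicle levels were 33.7 CPM per kb for Jak1, 31.8 for Ifngr1, 23.1 for Ifnar2, 20.9 for Ifngr2, 14.3 for Jak2, 13.3 for Ifnar1, 6.56 for Tyk2, 3.52 for Il15, 3.25 for Il15ra and 0.166 for Il12rb1 (n = 4 mice each). The vehicle ranges of Jak1 and Ifngr1 overlapped, as did those of Ifnar2 and Ifngr2, of Jak2 and Ifnar1, and of Il15 and Il15ra. The other neighbours in this order had separate ranges. All further levels are in CPM scaled by the trimmed mean of M-values (TMM), not per length.

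**Figure D1:**
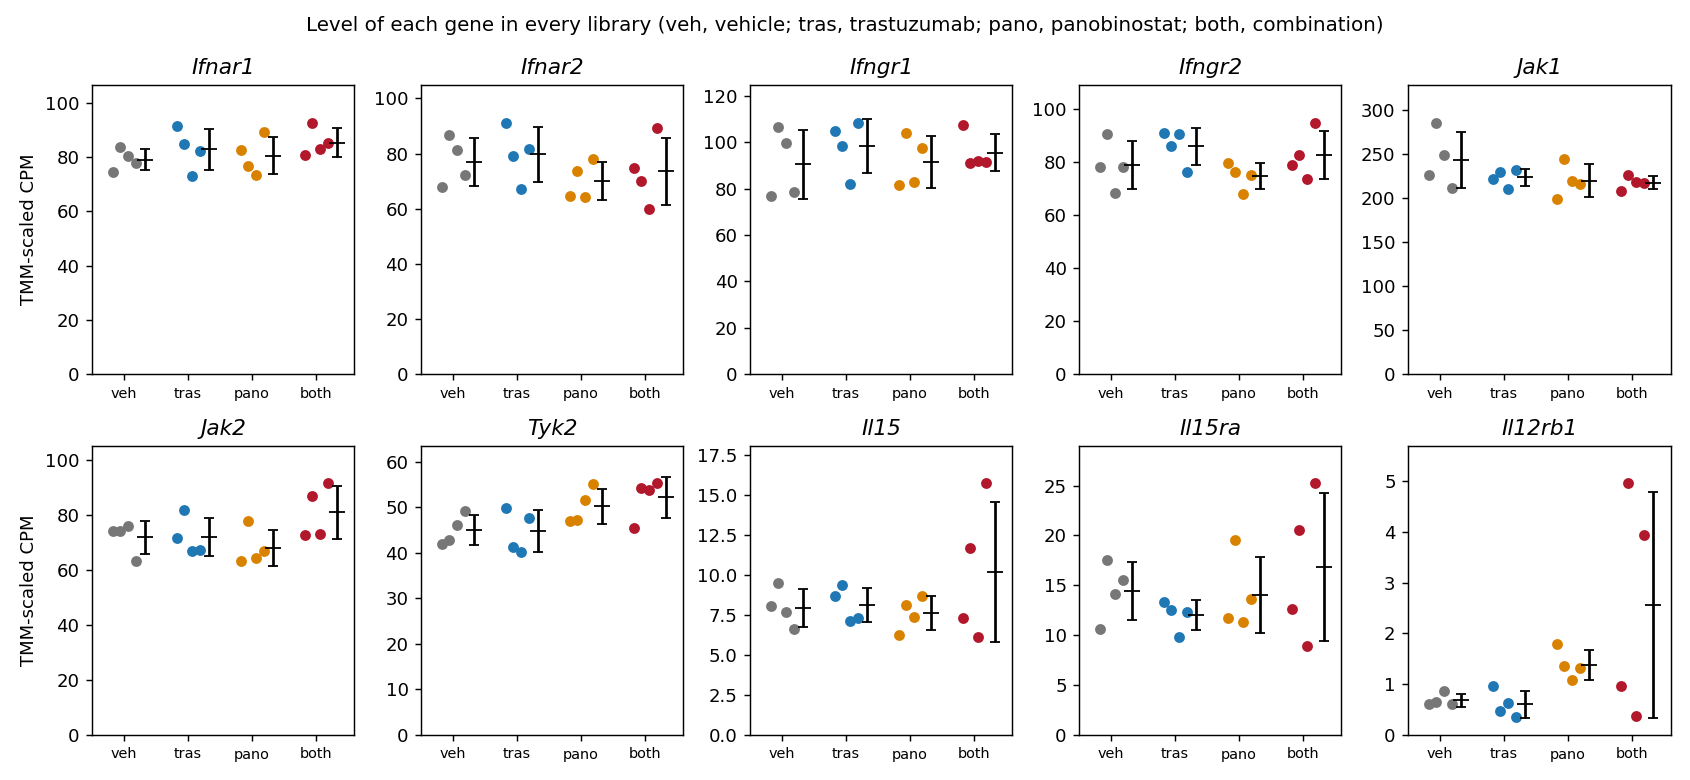
TMM-scaled CPM (y axis, from 0) of each of the 10 genes in every library (points), by group (x axis), with mean and SD of 4 mice beside the points. The interferon receptor groups overlapped, while combination 11 and 22 stood above the other libraries for Il15, Il15ra and Il12rb1.

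Over all genes, edgeR's quasi-likelihood test called 2.2% of 15610 genes in the combination against vehicle, 0.192% in panobinostat against vehicle, 0.628% in the combination against trastuzumab, 3.02% over panobinostat-treated against other libraries with trastuzumab status held, and 0.147% over trastuzumab-treated against other libraries with panobinostat status held. It called 0% in trastuzumab against vehicle, in the combination against panobinostat and for the interaction. It called 0 of the 9 tested genes in each of the 8 comparisons. At an unadjusted p under 0.05, 1 of the 9 was found over panobinostat and in the combination against trastuzumab (Tyk2 both times), 1 in the combination against panobinostat (Jak2), and 0 in the other comparisons. Over all genes tested, 13.5%, 9.26% and 4.48% had such a p in these 3 comparisons, so the count of 1 among 9 was no result about these genes. DESeq2 called 1 of the 10, Il12rb1 over panobinostat, where it called 615 of 17437 genes in all, and 0 in the other comparisons, and limma voom called 0. In the combination against vehicle the 9 genes had a median log2 change of 0.11, against -0.01 over all genes tested. Over panobinostat the median was 0.03, against -0.002 over all genes.

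Whether the interferon receptor chains changed with treatment was asked first, and none of the 4 was called in any of the 8 comparisons. Ifnar1 (ENSMUSG00000022967.13; chr16:91485238-91507441, plus strand, on mm10 as all gene positions here) lay between 74.4 and 83.8 CPM in vehicle, 73.1 and 91.3 in trastuzumab, 73.4 and 89.1 in panobinostat, and 80.6 and 92.6 in combination libraries. Its partner Ifnar2 (chr16:91372783-91405589, plus strand) lay between 67.8 and 86.9 CPM in vehicle, 67.0 and 91.2 in trastuzumab, 64.1 and 77.9 in panobinostat, and 60.0 and 89.2 in combination libraries. For both chains the 4 groups overlapped, and the combination range of Ifnar2 took in the whole vehicle range. Against vehicle, the combination differed by a log2 change of 0.11 for Ifnar1 (95% interval -0.09 to 0.31, adjusted p = 0.681) and by -0.06 for Ifnar2 (interval -0.33 to 0.21, adjusted p = 0.897). The value for Ifnar2 turned to 0.03 without combination 16 and was also above 0 without vehicle 6. Of the exon bases of Ifnar2, 9.46% lie in Gm21970 on the same strand.

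Ifngr1 (chr10:19591949-19610229, plus strand), which binds interferon gamma, lay between 77.1 and 107 CPM in vehicle, 82.0 and 109 in trastuzumab, 81.6 and 104 in panobinostat, and 91.0 and 108 in combination libraries. Ifngr2 (chr16:91547072-91565623, plus strand), which completes the receptor, lay between 68.5 and 90.7 CPM in vehicle, 76.1 and 91.2 in trastuzumab, 67.9 and 79.6 in panobinostat, and 73.5 and 94.9 in combination libraries. The groups overlapped for both chains. The log2 change of the combination against vehicle was 0.08 for Ifngr1 (95% interval -0.19 to 0.35, adjusted p = 0.868) and 0.07 for Ifngr2 (interval -0.16 to 0.29, adjusted p = 0.858). The value for Ifngr2 was -0.01 without combination 22. For the trastuzumab-treated libraries against the others, Ifngr2 had a log2 change of 0.13 (interval -0.02 to 0.29, adjusted p = 0.883).

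Over panobinostat-treated libraries, the log2 changes were 0.03 for Ifnar1 (95% interval -0.11 to 0.17), -0.13 for Ifnar2 (-0.32 to 0.07), -0.02 for Ifngr1 (-0.21 to 0.18) and -0.07 for Ifngr2 (-0.23 to 0.09). The adjusted p-values were 0.907, 0.632, 0.973 and 0.794. The interval of each chain thus lay within 0.32 on either side of 0 on the log2 scale. For Ifngr1 the sign depended on the scaling: with total counts in place of TMM the value was 0.01. It also turned without vehicle 21, vehicle 6, trastuzumab 24, panobinostat 4 or panobinostat 8, with leave-one-out values from -0.05 to 0.03.

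The Janus kinases were compared next. Jak1 (chr4:101152367-101265282, minus strand), the kinase shared by both interferon receptors, had the highest mean vehicle level per kilobase of the 10 genes. In CPM it lay between 212 and 286 CPM in vehicle, 211 and 232 in trastuzumab, 199 and 245 in panobinostat, and 209 and 227 in combination libraries. Vehicle 6 held the highest value, and the groups overlapped. The log2 change of Jak1 was -0.16 in the combination against vehicle (95% interval -0.37 to 0.05, adjusted p = 0.533), -0.15 in panobinostat against vehicle (interval -0.36 to 0.07, adjusted p = 0.834) and -0.09 over panobinostat-treated libraries (interval -0.24 to 0.06, adjusted p = 0.663).

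Jak2 (chr19:29251828-29313080, plus strand) serves the interferon gamma receptor and the receptors for growth hormone, erythropoietin and IL-12. In vehicle mice 21, 29, 3 and 6 its level was 76.0, 63.0, 74.0 and 74.2 CPM. Trastuzumab mice 12, 15, 20 and 24 had 71.7, 81.8, 66.8 and 67.1 CPM. Panobinostat mice 13, 4, 7 and 8 had 66.8, 63.2, 77.6 and 64.1 CPM. The vehicle and single-drug groups overlapped. Combination mice 11, 16, 2 and 22 had 86.7, 73.0, 72.5 and 91.4 CPM. Combination 11 and 22 were thus the highest of all libraries, while the other combination libraries lay within the vehicle range. The log2 change of the combination was 0.17 against vehicle (95% interval -0.06 to 0.40, adjusted p = 0.533) and 0.25 against panobinostat (interval 0.02 to 0.48, unadjusted p = 0.0330, adjusted p = 0.976). The interaction, which tests whether trastuzumab acted otherwise with panobinostat than without, was 0.25 for Jak2 (interval -0.07 to 0.58, adjusted p = 1). Over all alternatives, the change against panobinostat ran from 0.17 to 0.34 with adjusted p from 0.538 to 1.

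Tyk2 (chr9:21104068-21131243, minus strand), the kinase on IFNAR1 and on IL-12 receptor beta 1, had the smallest p-value of the 9 tested genes over panobinostat. In vehicle mice 21, 29, 3 and 6 its level was 46.1, 49.2, 42.0 and 42.8 CPM. Trastuzumab mice 12, 15, 20 and 24 had 49.9, 41.3, 40.3 and 47.7 CPM. These untreated and trastuzumab groups overlapped. Panobinostat mice 13, 4, 7 and 8 had 55.1, 47.0, 47.2 and 51.6 CPM. Combination mice 11, 16, 2 and 22 had 54.3, 53.7, 45.5 and 55.3 CPM. Of the libraries given panobinostat, 5 lay above every library without it, and panobinostat 4, panobinostat 7 and combination 2 did not. Tyk2 differed by a log2 change of 0.19 over panobinostat-treated libraries (95% interval 0.04 to 0.34), with an unadjusted p of 0.0179 and an adjusted p of 0.220. The combination differed from trastuzumab by 0.22 (interval 0.01 to 0.43, unadjusted p = 0.0454, adjusted p = 0.524) and from vehicle by 0.21 (interval -0.001 to 0.43, adjusted p = 0.364). None of these passed the threshold. Of the exon bases of Tyk2, 8.07% overlap the antisense gene 1700084C06Rik, and the kit does not mark strand, so reads there could not be assigned to one of the genes.

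Ratios of paired genes within a library do not depend on library scaling, and 12 such tests were run over 4 pairs. The log2 ratio of Jak2 to Jak1 averaged -1.75 ± 0.14 (SD, n = 4) in vehicle, -1.64 ± 0.12 in trastuzumab, -1.69 ± 0.06 in panobinostat and -1.44 ± 0.15 in combination libraries. The combination libraries ran from -1.58 to -1.25 and the vehicle libraries from -1.95 to -1.61, without overlap. The panobinostat libraries, from -1.78 to -1.65, also lay below the combination libraries, a difference that was not tested. The difference of the combination from vehicle was 0.32, with an exact two-sided permutation p of 0.0286, the smallest that 4 against 4 libraries can give, and 0.157 after adjustment over the 12 tests. Over trastuzumab-treated libraries the ratio differed by 0.19 (exact permutation p = 0.0102, adjusted p = 0.122). That test passed the threshold without trastuzumab 24 (adjusted p = 0.0343) or without vehicle 3 (adjusted p = 0.0441), with a difference of 0.21 each time. Trastuzumab 24 had the lowest ratio of its group, -1.79, and vehicle 3 the highest of its group, -1.61. Leaving out either was thus bound to widen the difference, and these passes are not support for it. Over panobinostat-treated libraries it differed by 0.13 (exact permutation p = 0.0522, adjusted p = 0.157).

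The log2 ratio of Ifnar2 to Ifnar1 was -0.04 ± 0.09 (SD, n = 4) in vehicle, -0.06 ± 0.06 in trastuzumab, -0.20 ± 0.12 in panobinostat and -0.23 ± 0.25 in combination libraries. Combination 22 had the highest ratio of all libraries and combination 16 the lowest. The difference over panobinostat was -0.16 (exact permutation p = 0.0482, adjusted p = 0.157). The ratios of Ifngr2 to Ifngr1 and of Il15ra to Il15 gave adjusted p-values of 0.226 to 0.943 by the same exact test.

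**Figure D2:**
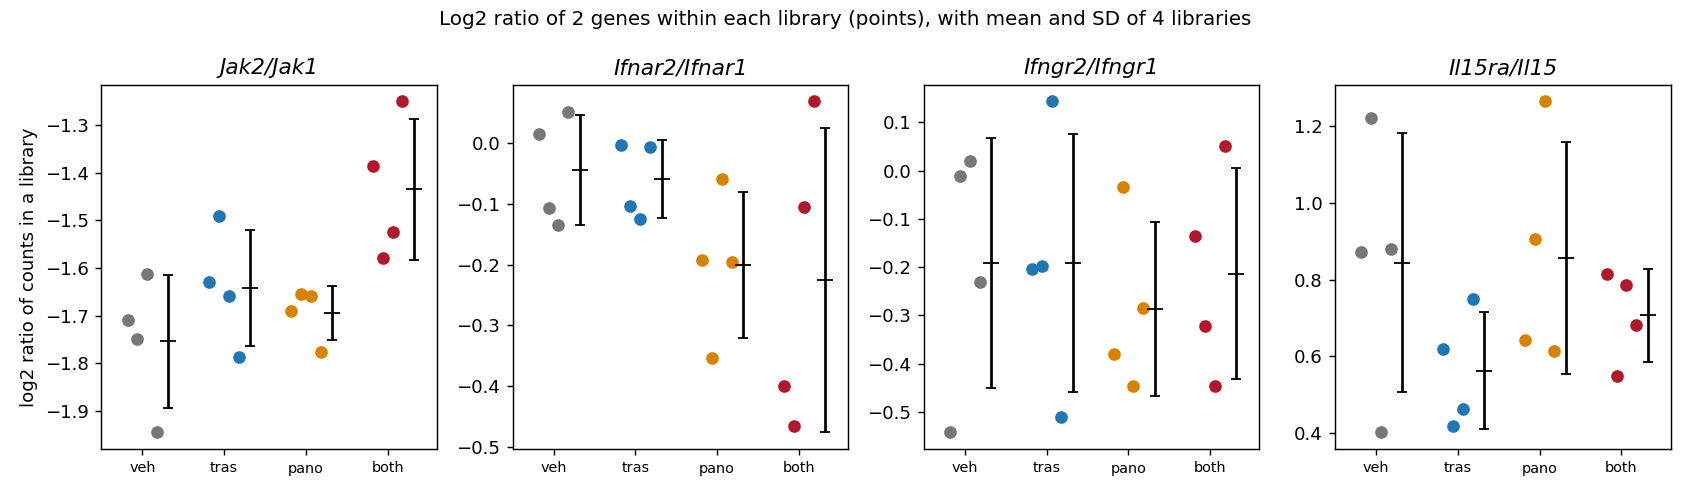
Log2 ratio of counts of 2 genes in each library (y axis, points) by group (x axis), with mean and SD of 4 mice. For Jak2 over Jak1 the 4 combination libraries, from -1.58 to -1.25, lay above the 4 vehicle libraries; in the other panels the groups overlapped.

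IL-15 and its receptor alpha chain were compared across the same groups. Il15 (chr8:82331632-82403222, minus strand) had 7.65, 6.63, 8.05 and 9.49 CPM in vehicle mice 21, 29, 3 and 6. Trastuzumab mice 12, 15, 20 and 24 had 8.65, 9.34, 7.10 and 7.32 CPM. Panobinostat mice 13, 4, 7 and 8 had 8.70, 6.23, 8.10 and 7.34 CPM. The single-drug libraries thus lay in about the range of vehicle. Combination mice 11, 16, 2 and 22 had 11.7, 6.10, 7.28 and 15.7 CPM. Combination 11 and 22 were above all other libraries, and combination 16 was below them all. Counts of Il15 were 32 to 124 per library, so its sampling error was larger than that of the kinases. The combination differed from vehicle by a log2 change of 0.38 (95% interval -0.13 to 0.88, adjusted p = 0.545) and from panobinostat by 0.44 (interval -0.07 to 0.95, adjusted p = 0.976). Without combination 22 the change against vehicle was 0.08, the lowest of its alternatives, which reached 0.56.

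Il15ra (chr2:11705290-11734317, plus strand), which carries IL-15 to neighbouring cells, had 14.1, 15.6, 10.7 and 17.5 CPM in vehicle mice 21, 29, 3 and 6. Trastuzumab mice 12, 15, 20 and 24 had 13.3, 12.5, 9.81 and 12.4 CPM. Panobinostat mice 13, 4, 7 and 8 had 13.6, 11.8, 19.6 and 11.3 CPM. The vehicle and single-drug libraries overlapped. Combination mice 11, 16, 2 and 22 had 20.5, 8.95, 12.6 and 25.2 CPM. As for Il15, combination 11 and 22 were the highest of all libraries and combination 16 the lowest. The log2 change of the combination was 0.23 against vehicle (95% interval -0.32 to 0.78, adjusted p = 0.787) and 0.50 against trastuzumab (interval -0.06 to 1.06, adjusted p = 0.607). Trastuzumab alone differed from vehicle by -0.27 (interval -0.84 to 0.30, adjusted p = 1). Without combination 22 the change of Il15ra in the combination against vehicle was -0.04.

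Combination 11 and 22 also stood apart in the interferon response. The 12 interferon gamma response genes, which include none of the 10 genes, summed to 1435 CPM in combination 11 and 2000 CPM in combination 22, and to 668 and 774 CPM in combination 16 and 2. They summed to 315 to 490 CPM in vehicle, 388 to 589 in trastuzumab and 721 to 963 in panobinostat libraries. All panobinostat libraries thus exceeded all vehicle libraries in that sum. In panobinostat against vehicle, all 12 genes had a log2 change above 0, and 0 were called. Over panobinostat-treated libraries, 11 of the 12 were called higher, beside 3.02% of all genes tested called there. In the combination against vehicle 11 were called higher, beside 2.2% of all genes tested. Of 12 type I interferon response genes, 11 and 10 were called higher in these 2 comparisons. Il15 ranged from 6.23 to 8.70 CPM in panobinostat and from 6.63 to 9.49 CPM in vehicle libraries. Il15ra ranged from 11.3 to 19.6 CPM and from 10.7 to 17.5 CPM in these groups, and Jak2 from 63.2 to 77.6 CPM and from 63.0 to 76.0 CPM. Il12rb1 ranged from 1.07 to 1.78 CPM in panobinostat and from 0.604 to 0.869 CPM in vehicle libraries. A link between the response genes and these genes was not tested. The same combination libraries had the higher sums of NK cell markers, 112 and 93.5 CPM against 39.6 and 53.1 CPM, and of the 9 T and B lymphocyte markers with values, 51.9 and 47.9 CPM, with 15.9 CPM in combination 2 and about the same in combination 16. Vehicle libraries had 21.6 to 50.7 CPM of the lymphocyte markers, trastuzumab libraries 11.3 to 39.9 and panobinostat libraries 12.9 to 54.1. Sums of that size were also seen in other libraries. Trastuzumab 12 had 102 CPM of NK cell markers, with Il15 at 8.65, Il15ra at 13.3, Jak2 at 71.7 and Il12rb1 at 0.961 CPM. In the trastuzumab group, its Il15ra and Il12rb1 levels were the highest. Panobinostat 13 had the 54.1 CPM of lymphocyte markers, with Il15 at 8.70, Il15ra at 13.6, Jak2 at 66.8 and Il12rb1 at 1.31 CPM. The macrophage and monocyte markers summed to 8780 CPM in combination 11 and 11251 CPM in combination 22, against 8437 and 9677 CPM in combination 16 and 2. The 12 luminal genes summed to 1122 and 828 CPM, against 1105 and 1280 CPM, in the same order. The part of any of these cells in the levels of Il15, Il15ra, Jak2 and Il12rb1 was not tested.

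**Figure D3:**
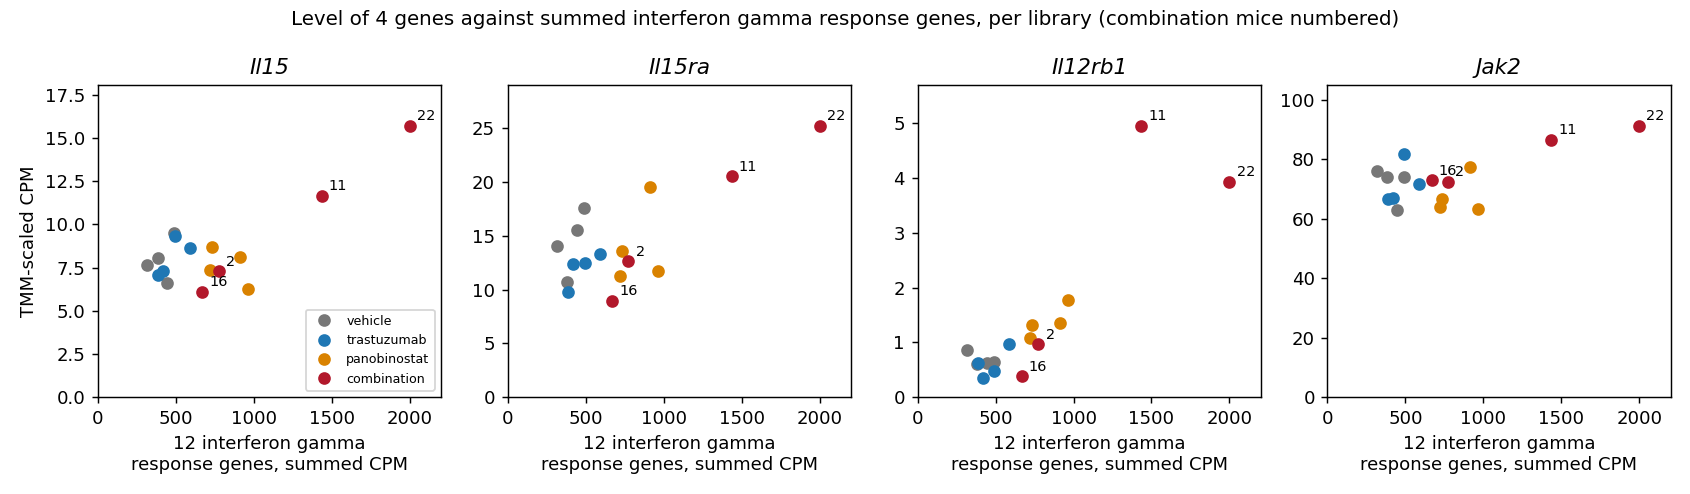
TMM-scaled CPM of Il15, Il15ra, Il12rb1 and Jak2 (y axes, from 0) against the summed CPM of 12 interferon gamma response genes (x axis), 1 point per library, coloured by group, with combination mice numbered. Combination 11 and 22, at 1435 and 2000 CPM of response genes, lay highest in all 4 panels. The panobinostat libraries, at 721 to 963 CPM, had Il15 at 6.23 to 8.70 CPM and Il12rb1 at 1.07 to 1.78 CPM. The relation between the axes was not tested.

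Il12rb1 (chr8:70808449-70821424, plus strand) was too low for the filter and was not among the genes tested. Vehicle mice 21, 29, 3 and 6 had 0.869, 0.616, 0.604 and 0.644 CPM, or 3 to 5 counts each. Trastuzumab mice 12, 15, 20 and 24 had 0.961, 0.475, 0.626 and 0.348 CPM, or 2 to 7 counts. Panobinostat mice 13, 4, 7 and 8 had 1.31, 1.78, 1.35 and 1.07 CPM, or 6 to 10 counts. All panobinostat libraries were above all vehicle and all trastuzumab libraries. Yet panobinostat 8 (6 counts) differed from vehicle 21 (5 counts) and from trastuzumab 12 (7 counts) by less than counting error. Among the tested genes, which do not include Il12rb1, 3.32% were higher in panobinostat than in vehicle libraries without overlap. Combination mice 11, 16, 2 and 22 had 4.95, 0.381, 0.971 and 3.93 CPM, or 34, 2, 6 and 31 counts, so that combination 11 and 22 were the highest of all libraries and combination 16 was near the lowest.

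With no filter on low counts, edgeR gave Il12rb1 a log2 change of 1.54 over panobinostat-treated libraries (adjusted p = 0.0729) and of 1.95 in the combination against vehicle (adjusted p = 0.109). DESeq2 called it over panobinostat-treated libraries, with a log2 change of 1.55 and an adjusted p of 0.0354, and not in the combination against vehicle (adjusted p = 0.0839). Il12rb1 passed the filter in 13 of the 16 fits that left out 1 library. It failed without panobinostat 4, combination 11 or combination 22, its 3 highest libraries. It thus entered these fits only through the libraries in which it was high. The calls of Il12rb1, that of DESeq2 included, are values, not support for a difference. Il12rb1 was called over panobinostat without combination 16 (1.69, adjusted p = 0.0110) and without combination 2 (1.67, adjusted p = 0.0373). Without combination 16, which held its lowest combination level, it was also called in the combination against vehicle (2.26, adjusted p = 0.0130) and against trastuzumab (2.41, adjusted p = 0.0217). Over all its alternatives with a value, the adjusted p was 0.0110 to 0.138 over panobinostat and 0.0130 to 0.213 against vehicle.

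Genes around these receptors and kinases were read from lists of the pathway. Of 20 interferon ligands, Ifng and Ifnz had values, and neither passed the filter. Ifng, the gene of interferon gamma, had 0 counts in all vehicle libraries, which allows up to 0.462 to 0.604 CPM per library at 3 counts. It had 1 to 3 counts in trastuzumab, 2 to 5 in panobinostat and 1 to 7 in combination libraries, or 6, 11 and 15 counts in all. Each treated group was so close to the limit of the depth that no order was read from these counts. The other ligands were not analysed here.

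Of 8 signal transducers, 2 rose and 0 fell over panobinostat-treated libraries, with a median log2 change of 0.21 for the list. Over all genes tested, 3.02% were called there. Stat2, which acts in type I interferon signalling, rose by a log2 change of 0.92 (SE 0.15, adjusted p = 0.00294). Jak3, the Janus kinase bound to the chain encoded by Il2rg, rose by 0.37 (SE 0.07, adjusted p = 0.0104). Stat2 lay at 74.4 ± 15.0 CPM (SD, n = 4) in vehicle, 70.4 ± 7.22 in trastuzumab, 124 ± 22.5 in panobinostat and 152 ± 57.2 in combination libraries, with the highest levels, 226 and 168 CPM, in combination 22 and 11. Of 20 negative regulators, 1 rose and 0 fell: Usp18, which blocks IFNAR2 signalling, by 1.06 (SE 0.21, adjusted p = 0.00964). Beside 3.02% over all genes, the count of 1 among 20 was no result about that list. The calls of Stat2, Jak3 and Usp18 over panobinostat held in all 22 alternatives.

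In the combination against vehicle, Stat2 rose by 1.03 (SE 0.22, adjusted p = 0.0156) and Usp18 by 1.42 (SE 0.30, adjusted p = 0.0170), which made 1 of 8 transducers and 1 of 20 regulators. Over all genes tested, 2.2% were called in that comparison. A count of 1 in either list was no result about that list. Without combination 11 or vehicle 21 the adjusted p of Stat2 was 0.0582 and 0.0527. That of Usp18 was 0.0598 without combination 11, 0.0604 without combination 22 and 0.0535 without vehicle 21. Adding a luminal gene score as a covariate or fitting only these 2 groups ended both calls (adjusted p of 0.0723 to 0.0889). In the combination against trastuzumab, 1 of 8 transducers rose and 0 fell, beside 0.628% of all genes tested called there: Stat2 by 1.11 (SE 0.22, adjusted p = 0.0344). That call was lost without trastuzumab 15, 20 or 24 or combination 11 or 22, with adjusted p of 0.0853 to 0.127.

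Among 7 tested partners and kin of the IL-15 receptor, 3 rose in the combination against vehicle and 0 fell. Over all genes tested, 2.2% were called there. Il2rg, the signalling chain shared by IL-15 and IL-2, rose by 0.85 (SE 0.19, adjusted p = 0.0223). Il2ra, the alpha chain of the IL-2 receptor, rose by 1.36 (SE 0.34, adjusted p = 0.0449), and Il7r, the IL-7 receptor, by 0.83 (SE 0.21, adjusted p = 0.0469). Il7r lay at 7.22 ± 1.56 CPM (SD, n = 4) in vehicle, 13.04 ± 2.51 in trastuzumab, 8.63 ± 2.22 in panobinostat and 12.85 ± 1.90 in combination libraries. Its lowest trastuzumab level, 9.81 CPM, lay above its highest vehicle level, 8.94 CPM. Of all genes tested, 1.35% were higher in trastuzumab than in vehicle libraries without overlap. The mean of Il7r was thus above that of vehicle in trastuzumab libraries too, but no gene was called in trastuzumab against vehicle. The call of Il2rg was lost without combination 11 or 22 or vehicle 21, 3 or 6, with adjusted p of 0.0507 to 0.0871. That of Il2ra held only without vehicle 29, trastuzumab 12 or trastuzumab 24, and was otherwise at 0.0527 to 0.116. That of Il7r was lost without vehicle 21, 3 or 6, trastuzumab 15, panobinostat 7, or combination 11, 16 or 2, at 0.0513 to 0.146. The luminal covariate and the fit of only these groups ended all 3 calls (0.0591 to 0.271). Il2rb, the beta chain, was not called in any comparison. It lay at 4.79 ± 1.24 CPM (SD, n = 4) in vehicle, 9.82 ± 6.39 in trastuzumab, 8.37 ± 4.01 in panobinostat and 11.8 ± 6.11 in combination libraries. Its highest level was 20.8 CPM, in combination 11.

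Over panobinostat-treated libraries, 2 of these 7 genes rose and 0 fell, beside 3.02% of all genes tested called there. Il2rg rose by 0.53 (SE 0.13, adjusted p = 0.0401) and Il2ra by 0.95 (SE 0.25, adjusted p = 0.0439). The call of Il2rg held only without trastuzumab 12, panobinostat 8, combination 16 or combination 2, and was otherwise at adjusted p of 0.0573 to 0.0955. That of Il2ra held only without vehicle 29 or trastuzumab 12, and was otherwise at 0.0565 to 0.0924.

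Of 4 tested class II cytokine receptors beyond the interferon receptors, 1 rose in the combination against vehicle, where 2.2% of all genes tested were called. Il10ra, the IL-10 receptor alpha chain, rose by 0.53 (SE 0.11, adjusted p = 0.0142, and 0.0643 in a fit of only these groups). Of 15 other tested receptors that use JAK1, JAK2 or TYK2, 3 rose there and 0 fell. Csf2ra, the alpha chain of the GM-CSF receptor, rose by 0.42 (SE 0.09, adjusted p = 0.0223). Csf2rb2, a beta chain that serves IL-3, rose by 0.54 (SE 0.12, adjusted p = 0.0223). Csf2rb, the beta chain for GM-CSF, IL-3 and IL-5, rose by 0.47 (SE 0.12, adjusted p = 0.0402). The alpha chain gene of the IL-3 receptor, Il3ra, was not called, with means of 17.1 CPM in vehicle and 14.8 in combination libraries. Il5ra, that of IL-5, was too low to be tested. Csf2rb and Csf2rb2 are near-identical copies, so the split of reads between them is uncertain. The call of Csf2ra was lost without combination 22, vehicle 21 or vehicle 6, and that of Csf2rb2 without combination 11 or vehicle 29, 3 or 6, with adjusted p of 0.0507 to 0.0891. That of Csf2rb was lost without any combination library, trastuzumab 15, or vehicle 29, 3 or 6, at 0.0547 to 0.110. Markers of cells that can carry such receptors were read too. The 11 macrophage and monocyte markers summed to 8078 to 10951 CPM in vehicle and 8437 to 11251 CPM in combination libraries, which overlapped. The 8 dendritic cell markers summed to 123 to 138 CPM in vehicle, 141 to 193 in trastuzumab, 130 to 146 in panobinostat and 174 to 198 in combination libraries. In the same order, the 7 neutrophil markers summed to 138 to 203, 155 to 228, 105 to 144 and 92.5 to 122 CPM. Of the markers tested in the combination against vehicle, 1 of 11 macrophage and monocyte genes and 1 of 8 dendritic cell genes rose. In that comparison, 3 of 6 neutrophil genes and 5 of 5 erythroid genes fell. Of the 11 macrophage and monocyte genes 6 had a log2 change above 0, and of the 8 dendritic cell genes 5. The part of these cells in the changes of the receptor genes was not tested. The luminal covariate and the fit of only these groups ended the calls of Csf2rb and Csf2rb2, and the latter fit that of Csf2ra (0.0512 to 0.238).

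Over panobinostat-treated libraries, 2 of the 15 rose and 0 fell, beside 3.02% of all genes tested called there. Csf2rb2 rose by 0.32 (SE 0.08, adjusted p = 0.0461) and Csf2rb by 0.31 (SE 0.08, adjusted p = 0.0485). The call of Csf2rb2 held only without trastuzumab 12 or panobinostat 8, and that of Csf2rb only without vehicle 21, trastuzumab 24 or panobinostat 8, with adjusted p of 0.0516 to 0.112 otherwise. Of 5 tested genes of the IL-12 family and its other receptor chains, 0 were called in any of the 8 comparisons.

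**Figure D4:**
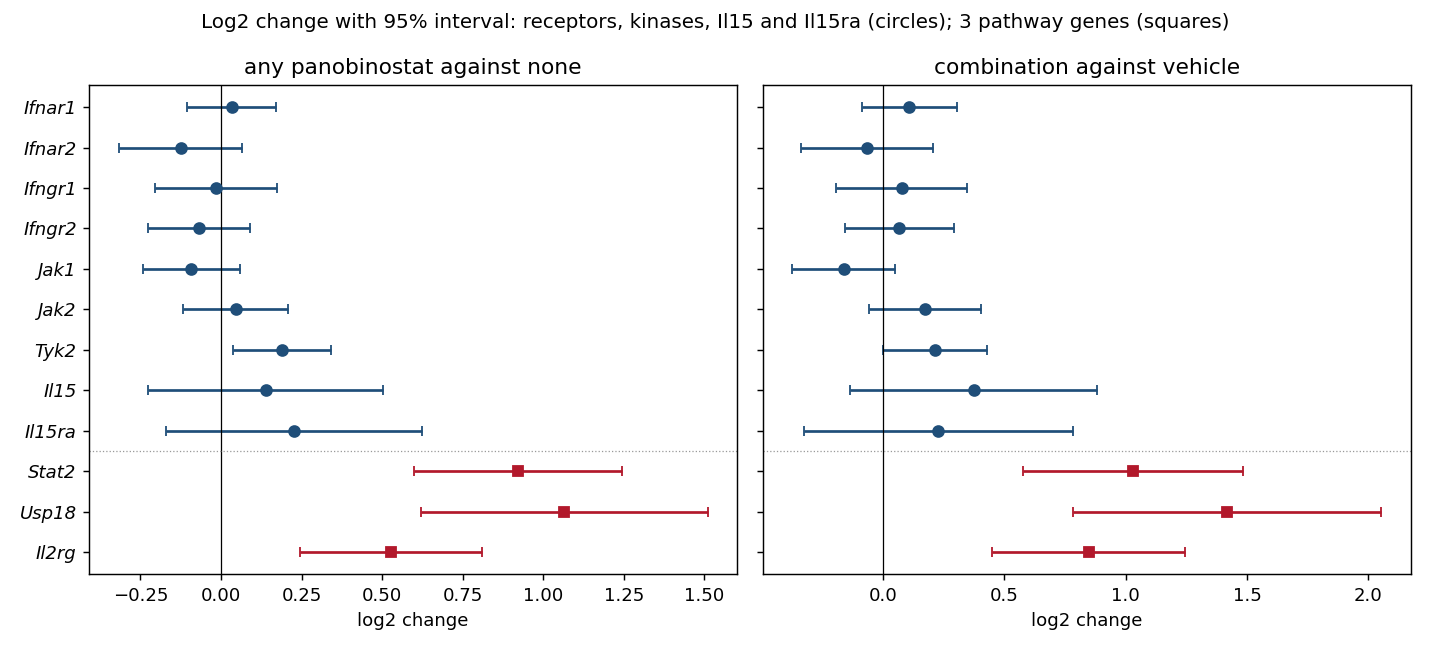
Log2 change with its 95% interval (x axis) of the 9 tested genes (circles) and of 3 pathway genes (squares), over panobinostat-treated libraries (left) and in the combination against vehicle (right). The intervals of the 4 interferon receptor chains and of Jak1 and Jak2 included 0 in both panels, while Stat2 lay at 0.92 and 1.03.

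By the rule for genes of like pattern, the 2 genes of smallest p over panobinostat were set against 11546 genes over the 16 libraries. Closest to Tyk2 were Ccl22, a chemokine of dendritic cells and macrophages, with Pearson r of 0.86 and Spearman rho of 0.87, Mgl2, a lectin of the same cells, with r of 0.84 and rho of 0.84, and Clec16a, with r of 0.83 and rho of 0.76. Without the 2 libraries farthest from the median of Tyk2, r was 0.79, 0.76 and 0.79. Closest to Ifnar2 were Pcmtd2 with r of 0.89 and rho of 0.90, Mrpl48 with r of 0.88 and rho of 0.85, and AI462493 with r of 0.88 and rho of 0.81. Without the 2 farthest libraries r was 0.91, 0.87 and 0.82. These are descriptions over libraries that share depth and scaling, picked as the highest of many.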

How the data were processed

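RNA sequencing counts came from 16 whole tumours, 1 per mouse. The authors deposited 1 table of raw counts for mouse symbols. The tools were CASAVA 1.8.2, TopHat2 and HTSeq, with build mm10, per the submitters' processing notes. Settings, and whether human reads were set aside, were not given in the sources used here. Symbols with no value in panobinostat-treated libraries (1327) were left out.

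edgeR 4.0.16 (R 4.3.3) was run with TMM scaling, filterByExpr and 1 mean per group over all 16 libraries, and 15610 genes were tested by the quasi-likelihood F test. The 8 comparisons were each drug and the combination against vehicle, the combination against each drug, both drug effects with the other drug held, and the interaction. A call was an adjusted p under 0.05, by Benjamini-Hochberg over all genes, at any fold. Intervals are at 95%. Groups share no mice; the labels do not say whether any library was prepared apart from the others. Ratios used counts with 0.5 added and exact two-sided permutation tests. The steps were tested on simulated data. Gene positions and exon lengths were from GENCODE M21 (mm10); promoters were from RefSeq.

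The genes and lists were chosen with earlier results of these data known, and 1 listed gene is not reported here. The text names all 10 genes, up to 3 called genes per list and comparison with the smallest adjusted p, and the 3 genes closest in log2 CPM (mean CPM of at least 5) to each called gene or, with none called, to the 2 of smallest p over panobinostat. Alternatives were other scalings, no filter on low counts, DESeq2 1.42.0, limma 3.58.1 voom, a luminal gene score as covariate, fits of 2 groups, and leaving out each library. The total of 4848244 to 8140782 counts per library limits the low genes, above all Il12rb1 and Ifng, and count limits cover counting error only.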

Additional observations from a re-analysis of the deposited data

Results flagged for a closer look

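In 3 of 40 groups of 4 libraries, 1 library stood apart from the others of its group by Dixon's test on log2 CPM; chance sets apart about 5% of groups. Ifngr1 was at 108 CPM in combination 2, above the other combination libraries. Jak2 was at 63.0 CPM in vehicle 29, below the other vehicle libraries. Tyk2 was at 45.5 CPM in combination 2, below the other combination libraries.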

How the results depend on the processing

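Of the 9 tested genes, 0 passed the threshold under any alternative. The count of called genes became 1 over panobinostat with DESeq2, through Il12rb1. When each library was left out, it ranged from 0 to 1 over panobinostat and, for the combination, against trastuzumab and against vehicle, again through Il12rb1. That gene failed the filter on low counts in the main fit and passed it in other fits only while its highest libraries were kept. These calls are thus values, not support for a difference. With total-count scaling Ifngr1 turned from -0.015 to 0.011 over panobinostat, and with the luminal score as a covariate it turned to -0.028 in the combination against vehicle; the causes were not tested. Leaving out each library gave log2 changes in the combination against vehicle of -0.17 to 0.030 for Ifnar2, -0.0078 to 0.15 for Ifngr2 and -0.037 to 0.44 for Il15ra. It gave -0.054 to 0.029 for Ifngr1 and -0.0080 to 0.23 for Il15 over panobinostat, and -0.14 to 0.012 for Ifngr1 in the interaction. The ratio of Ifnar2/Ifnar1 over trastuzumab ran from -0.069 to 0.020, that of Ifngr2/Ifngr1 from -0.022 to 0.089 over trastuzumab and from -0.14 to 0.056 in the combination against vehicle, and that of Jak2/Jak1 over trastuzumab from 0.15 to 0.21.

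Over all genes, DESeq2 called 147 genes in panobinostat against vehicle, 525 in the combination against vehicle and 225 against trastuzumab, where edgeR called 30, 343 and 98. It called 8 in trastuzumab against vehicle and 9 in the combination against panobinostat, where edgeR called 0, and 60 over trastuzumab, where edgeR called 23. In the same order of the first 3 comparisons, the luminal covariate gave 10, 143 and 9, and fits of 2 groups gave 58, 127 and 5. limma voom gave 3 in panobinostat against vehicle and 11 in the combination against trastuzumab, total-count scaling gave 46 in the first, and the luminal covariate gave 5 over trastuzumab. Leaving out each library gave 3 to 72, 201 to 379 and 3 to 179 in those 3 comparisons and 2 to 33 over trastuzumab. Under the luminal covariate and the fits of 2 groups, the calls of Stat2, Usp18, Il2rg, Il2ra, Il7r, Csf2rb and Csf2rb2 in the combination against vehicle were lost, with adjusted p of 0.0512 to 0.271; those of Il10ra (0.0643) and Csf2ra (0.120) were lost in the fit of 2 groups. There limma voom ended the call of Il7r (0.0553) and no filter that of Il2ra (0.0529). Against trastuzumab, the luminal covariate, limma voom and the fit of 2 groups ended that of Stat2 (0.0574 to 0.155). Over panobinostat, the luminal covariate ended those of Il2rg, Il2ra, Csf2rb and Csf2rb2, limma voom those of Il2rg and Csf2rb2, and no filter those of Il2ra, Csf2rb and Csf2rb2 (0.0503 to 0.0691). No paired analysis was possible because the groups share no mouse number.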
